A study of Mus musculus with 6 samples.

Results

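Glutathione S-transferases (GSTs) are detoxifying enzymes, and 8 of their mouse genes were followed here through maps of the transcription factor NRF2: Gsta1, Gsta2, Gsta3 and Gsta4 of the alpha class, Gstm1 and Gstm2 of the mu class, and Gstp1 and Gstp2 of the pi class. The members were chosen by gene name, and every NRF2 peak that the authors' annotation gave to one of them was taken, at any distance from the transcription start site (TSS). This gave 10 peaks of 16057 in the 4 deposited lists, which merged into 4 sites of 14390. Of the 8 genes, 4 (50%) had at least 1 peak in some list, against 31.1% of 21900 protein-coding genes, and 4 had none. Of the 4 sites, 2 were in all 4 lists, against 1.78% of all merged regions.

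ChIP-seq, which sequences the DNA bound by an immunoprecipitated protein, located NRF2 with the antibody ab62352 in mouse embryonic fibroblasts (MEFs) of the strain 129S6/SvEvTac. The 4 groups were GCN2-/- (GCN2 KO) MEFs in DMEM without leucine, GCN2 KO MEFs in complete DMEM, wild-type (WT) MEFs in DMEM without leucine and WT MEFs in complete DMEM, each for 24 h. GCN2 is a kinase activated by uncharged tRNA, which builds up when an amino acid runs short, so the design asks where NRF2 sits when leucine is missing, with and without that sensor. Each group was 1 library. Its peaks were called against an input from complete medium of the same genotype, also where the cells had no leucine. The lists held 4600, 3141, 5980 and 2336 peaks in the order of the groups above. The read depth behind them is unknown, and differences between lists could not be tested against replicates, so they carry no p-value. Peak lists do not measure expression, so they check neither the fibroblast label nor the loss of GCN2.

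GSTs join glutathione to reactive, electrophilic compounds, which are then exported and broken down along the mercapturate route. Their genes lie in tandem clusters by class, alpha, mu and pi, and several are textbook targets of NRF2. NRF2 binds with a small Maf partner to the antioxidant response element, whose core letters are TGACNNNGC. That element resembles the AP-1 site, TGANTCA.

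In RefSeq, Gsta4 (chr9:78191966-78209349, plus strand), Gsta1 (chr9:78230669-78242683, plus strand) and Gsta2 (chr9:78331018-78347192, minus strand) lie along chromosome 9 in that order, with other genes between Gsta1 and Gsta2, while Gsta3 is at chr1:21240565-21265575 on the plus strand. The mu genes Gstm2 (chr3:107981702-107986420) and Gstm1 (chr3:108012250-108017973) are both on the minus strand. So are the pi genes Gstp1 (chr19:4035411-4037912) and Gstp2 (chr19:4040288-4042221), which lie end to end.

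The promoters of the 2 pi-class members and of Gsta3 are shown because they hold one of these motifs, and because the sole peak of the pi cluster lies upstream of both Gstp2 and Gstp1. They are RefSeq sequences of GRCm38.p6, the assembly of mm10, from 250 bases before to 50 after the start, written 5′ to 3′ along the gene. Capitals mark a match to TGANTCA in the pi pair and to TGACNNNGC in Gsta3.
Gstp1, chr19:4037863-4038162, minus strand: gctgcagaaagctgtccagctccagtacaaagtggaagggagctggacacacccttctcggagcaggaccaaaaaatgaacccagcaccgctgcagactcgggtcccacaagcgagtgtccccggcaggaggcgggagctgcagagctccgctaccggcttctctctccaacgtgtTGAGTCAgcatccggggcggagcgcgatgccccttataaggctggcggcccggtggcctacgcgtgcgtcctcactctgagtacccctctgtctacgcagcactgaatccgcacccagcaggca
Gstp2, chr19:4042172-4042471, minus strand: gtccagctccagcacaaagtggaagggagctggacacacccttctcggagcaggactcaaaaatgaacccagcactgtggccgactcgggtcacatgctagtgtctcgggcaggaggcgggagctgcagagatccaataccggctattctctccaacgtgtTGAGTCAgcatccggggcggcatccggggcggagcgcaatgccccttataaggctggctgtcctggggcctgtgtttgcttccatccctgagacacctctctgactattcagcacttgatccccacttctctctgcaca
Gsta3, chr1:21240335-21240634, plus strand: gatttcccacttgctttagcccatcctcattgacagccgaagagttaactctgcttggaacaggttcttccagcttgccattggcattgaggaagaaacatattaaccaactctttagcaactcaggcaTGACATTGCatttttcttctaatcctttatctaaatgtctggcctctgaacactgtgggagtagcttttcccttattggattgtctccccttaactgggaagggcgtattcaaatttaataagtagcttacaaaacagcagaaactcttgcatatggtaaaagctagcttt

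The Gstp1 and Gstp2 promoters carried the same letters TGAGTCA, beginning 74 and 89 bases before the start. Their longest shared run was 43 bases, and no word of 50 bases, the read length, occurred in both. Gsta3 held TGACATTGC beginning 121 bases before its start. On either strand, TGACNNNGC occurred in 12.4% and TGANTCA in 7.81% of the 32851 promoters in the table. The motifs overlap, so a stretch can match both at once. A promoter was found for 7 of the 8 members, all but Gsta4. The first motif was in 1 of the 7 genes and the second in 2. None of the 25 windows assigned to these genes or to the wider GST family listed below overlapped a promoter of the table. A match here describes a promoter and not a peak.

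NRF2 peaks were assigned to Gstm1 and Gstp2 in all 4 lists, at the same 2 sites each time and high in every list. Gsta3 and Gsta4 had a peak in WT MEFs in complete medium and in no other list, near or below the middle of the scores. Gsta1, Gsta2, Gstm2 and Gstp1 had no assigned peak in any list. Members with a peak thus numbered 2 of 8 in GCN2 KO MEFs without leucine, 2 in GCN2 KO MEFs in complete medium, 2 in WT MEFs without leucine and 4 in WT MEFs in complete medium. As background, 13.5%, 9.89%, 17.3% and 7.93% of 21900 protein-coding genes had an assigned peak in those lists in the same order, and 1.61% had one in all 4. The members' shares were 25%, 25%, 25% and 50%, and each rests on 2 to 4 genes.

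**Figure D1:**
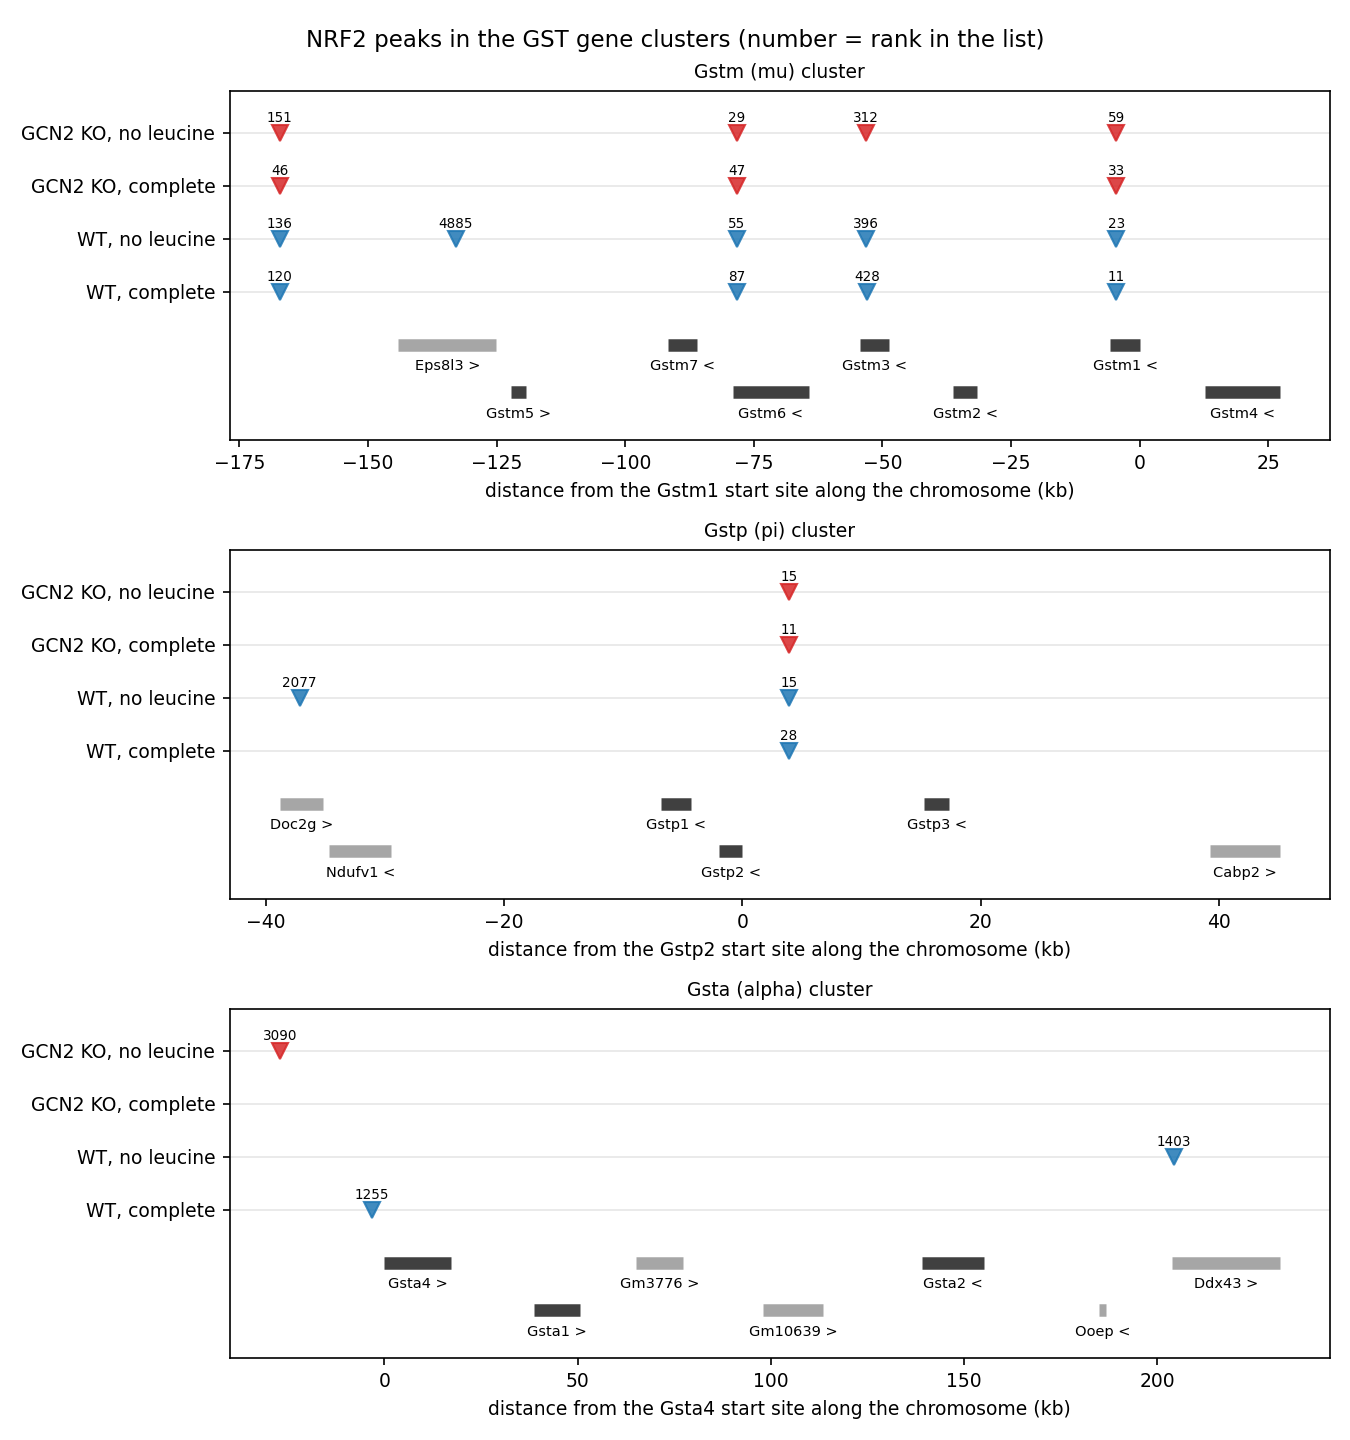
NRF2 peaks around the mu, pi and alpha genes on chromosomes 3, 19 and 9, as distance in kb along the chromosome from the start site of Gstm1, Gstp2 or Gsta4. Each triangle is a peak of 1 list with its rank above it, bars are genes (dark for GSTs) and < or > gives the direction of transcription; the Gstm1 and Gstp2 sites recur in all 4 rows, and Gsta1 and Gsta2 have no peak beside them.

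The pi-class gene Gstp2 had its peak in nearly the same place in every list. It was intergenic, upstream of the gene on chromosome 19. In GCN2 KO MEFs without leucine it spanned 4045969 to 4046269 and had a score of 504, rank 15 of 4600. In GCN2 KO MEFs in complete medium it spanned 4045968 to 4046268, with a score of 515 and rank 11 of 3141. The score is the authors' whole number for a peak and rank 1 is the highest; neither can be compared between lists of different length. WT MEFs without leucine had the peak at 4045986 to 4046286, with a score of 624 and rank 15 of 5980. WT MEFs in complete medium had it at 4045981 to 4046281, with a score of 373 and rank 28 of 2336. All 4 peaks lay within the top 1.2% of their lists. Their starts differed by 18 bp, against a median of 42 bp over the 256 regions found in all 4 lists, and 90.2% of those regions had a spread as large or larger.

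The authors' annotation gives each peak to its nearest TSS, so a site near several GST genes counts for 1 of them. Its centre lay 3.9 kb upstream of the Gstp2 TSS and 8.2 kb upstream of the Gstp1 TSS, in every list. Gstp3, another pi gene, starts 13.3 kb away on the other side. Counting any peak centre within 10 kb of a member's TSS added Gstp1 in all 4 lists and left out Gsta3. The counts then became 3, 3, 3 and 4 members for GCN2 KO without leucine, GCN2 KO in complete medium, WT without leucine and WT in complete medium. Which of the pi genes the site acts on, if any, cannot be told apart from a peak list.

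Gstm1, a mu-class enzyme gene, carried its peak inside the transcribed region, in intron 7 of 7. GCN2 KO MEFs without leucine had it at 108013276 to 108013576 on chromosome 3, with a score of 251 and rank 59 of 4600. In GCN2 KO MEFs in complete medium it was at 108013255 to 108013555, with a score of 282 and rank 33 of 3141. These are strong peaks of both KO lists, in the top 1.28% and 1.05%. WT MEFs without leucine had it at 108013264 to 108013564, with a score of 558 and rank 23 of 5980. In WT MEFs in complete medium it was at 108013279 to 108013579, with a score of 670 and rank 11 of 2336. The starts spanned 24 bp, as much or less than in 80.1% of regions found in all 4 lists.

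The order of the 2 recurrent members within a list was not the same everywhere. Gstp2 scored above Gstm1 in GCN2 KO MEFs without leucine, in GCN2 KO MEFs in complete medium and in WT MEFs without leucine. Gstm1 scored above Gstp2 in WT MEFs in complete medium. With 1 library each, the spread of such scores between repeats of 1 condition is unknown. Peaks as high as the lower of this pair were nearly all shared: 58 of 59, 32 of 33, 23 of 23 and 29 of 29 of them fell in regions of all 4 lists, in the order of the groups above. The exact (Clopper-Pearson) 95% intervals, which cover counting error only, were 90.9% to 100%, 84.2% to 99.9%, 85.2% to 100% and 88.1% to 100%. The counts hold the Gstm1 and Gstp2 peaks themselves. Their recurrence was thus shared by nearly all peaks of at least the lower one's height.

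**Figure D2:**
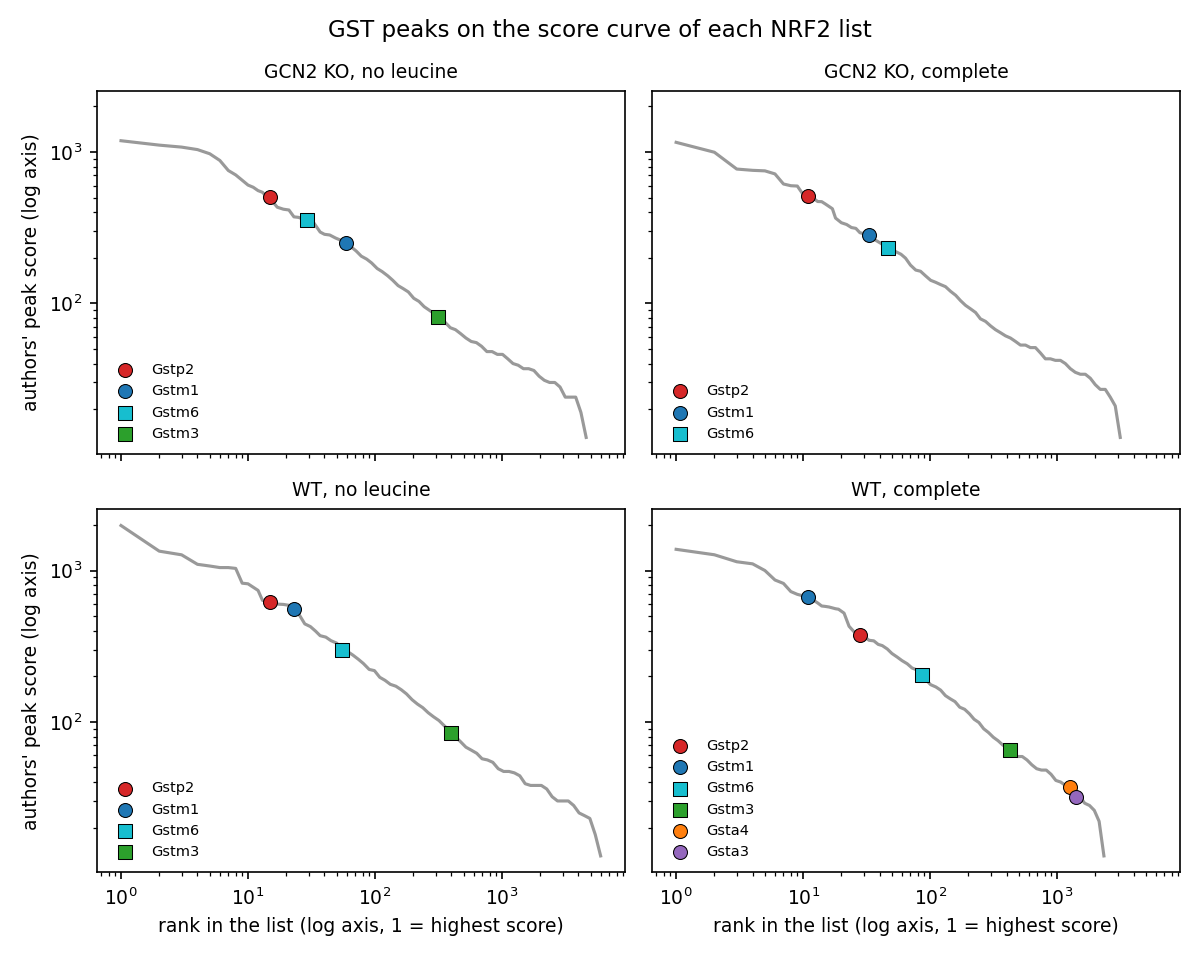
The authors' peak score against rank in each list, both on log axes, with GCN2 KO above WT and no leucine left of complete medium; the grey line is all peaks, circles are members and squares are Gstm6 and Gstm3. Gstp2 and Gstm1 sit near the top of every curve (ranks 11 to 59), and Gsta4 and Gsta3 appear in WT in complete medium alone, at ranks 1255 and 1419.

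The alpha-class peaks were weak and came from 1 library. Gsta4, whose enzyme is known for conjugating the lipid peroxidation product 4-hydroxynonenal, had an intergenic peak 3198 bp upstream of its TSS in WT MEFs in complete medium. It spanned 78188618 to 78188918 on chromosome 9, with a score of 37 and rank 1255 of 2336, where the median score was 38. The nearest peaks to this site in the other lists lay 23806 bp away in GCN2 KO MEFs without leucine, 292236 bp away in GCN2 KO MEFs in complete medium and 207498 bp away in WT MEFs without leucine. No call of the same site was thus seen in another list.

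Gsta3, another alpha-class gene, lies on chromosome 1, apart from the cluster. Its peak was in intron 5 of 6, 22191 bp downstream of the TSS, at 21262626 to 21262926 in WT MEFs in complete medium. The score was 32 and the rank 1419, shared with other peaks of the same score, 142 in all. The start of the noncoding gene Gm28836 lay closer, at 8.9 kb, in the RefSeq table. The list of WT MEFs in complete medium had 306 peaks with scores from 32 to 37, both alpha peaks included. Of these, 37 (12.1%, exact 95% interval 8.66% to 16.3%) overlapped a peak of any other list. The interval covers counting error only, not the spread between repeats. At this height most peaks of the list, like both alpha peaks, occurred once.

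Gsta1 and Gsta2 encode alpha-class enzymes and lie on the same stretch of chromosome 9 as Gsta4. The peak nearest to the Gsta1 TSS, whatever gene it was given to, was 65.7 kb away in GCN2 KO MEFs without leucine, 250.3 kb in GCN2 KO MEFs in complete medium, 165.6 kb in WT MEFs without leucine and 41.9 kb in WT MEFs in complete medium. For Gsta2 the distances were 182.2, 133.9, 49.1 and 133.8 kb in the same order. Neither gene had a site near its start in these lists. A site missing from a list was not called by the authors, which does not show that NRF2 was absent. Why it was not called was not tested.

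Between genotypes, no member had a peak in GCN2 KO and not in WT, in either medium. Without leucine, GCN2 KO and WT MEFs had the same members, Gstm1 and Gstp2, where 7.39% of protein-coding genes had a peak in the KO list alone and 11.2% in the WT list alone. In complete medium, 0 members had a peak in GCN2 KO alone, against 7.16% of protein-coding genes, and 2, Gsta3 and Gsta4, had one in WT alone, against 5.20%. Of the member sites in either list, 2 of 2 were in both without leucine and 2 of 4 in complete medium. Over all regions of either list, 4.71% and 7.14% were in both.

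Between media, the recurrent sites stayed in place as well. In GCN2 KO MEFs, Gstm1 and Gstp2 had their peak both without leucine and in complete medium, and 0 members had one in a single medium. The background was 9.29% of protein-coding genes with a peak without leucine alone and 5.67% in complete medium alone. In WT MEFs, 0 members had a peak without leucine alone, against 13.2% of genes, and Gsta3 and Gsta4 had one in complete medium alone, against 3.81%. Of the member sites in either medium, 2 of 2 in GCN2 KO and 2 of 4 in WT were in both, against 5.90% of all regions in GCN2 KO and 6.89% in WT. The genotype comparison in complete medium and the media comparison in WT share the list of WT MEFs in complete medium, so Gsta3 and Gsta4 come from the same peaks in both.

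Neighbours in the mu cluster had peaks in the same intron as Gstm1. Gstm6 and Gstm3, mu-class genes outside the 8, each had a peak in intron 7 of 7. The Gstm6 peak was at 107939528 to 107939828 in GCN2 KO MEFs without leucine (rank 29), 107939484 to 107939784 in GCN2 KO MEFs in complete medium (rank 47), 107939536 to 107939836 in WT MEFs without leucine (rank 55) and 107939532 to 107939832 in WT MEFs in complete medium (rank 87). It was thus in all 4 lists, 7.8 to 7.9 kb from the TSS of the peakless Gstm7, and it outscored the Gstm1 peak in GCN2 KO MEFs without leucine, with 355 against 251. In the other lists the Gstm6 score was the lower, with 232 against 282 in GCN2 KO MEFs in complete medium, 300 against 558 in WT MEFs without leucine and 205 against 670 in WT MEFs in complete medium.

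Gstm3 was weaker and missed 1 list. Its peak had rank 312 in GCN2 KO MEFs without leucine, at 107964672 to 107964972. It had rank 396 in WT MEFs without leucine, at 107964689 to 107964989, and rank 428 in WT MEFs in complete medium, at 107964765 to 107965065. GCN2 KO MEFs in complete medium had no peak there, and the nearest was the Gstm6 peak, 25205 bp away. The 3 starts spanned 93 bp.

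The 11 mu-class peaks of the 3 genes lay between 4063 and 4568 bp from the start sites the files measure from, and between 787 and 1219 bp before the 3′ end of the gene. The distances depend on the start chosen: from the nearest RefSeq start, the Gstm6 peaks lay at 3712 to 3764 bp, the Gstm3 peaks at 4259 to 4352 bp and the Gstm1 peaks at 4389 to 4413 bp. RefSeq also has a Gstm6 start farther upstream. Last introns of any gene held between 3.63% and 4.62% of the peaks of a list. The mu genes are close copies of each other, and the sources used here do not say how reads that match several copies were treated, so how much of each peak belongs to which copy is uncertain. The windows were not identical: the share of G and C bases was 47.5% to 48.5% at Gstm1, 47.5% to 50.5% at Gstm3 and 53.2% to 55.1% at Gstm6.

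**Figure D3:**
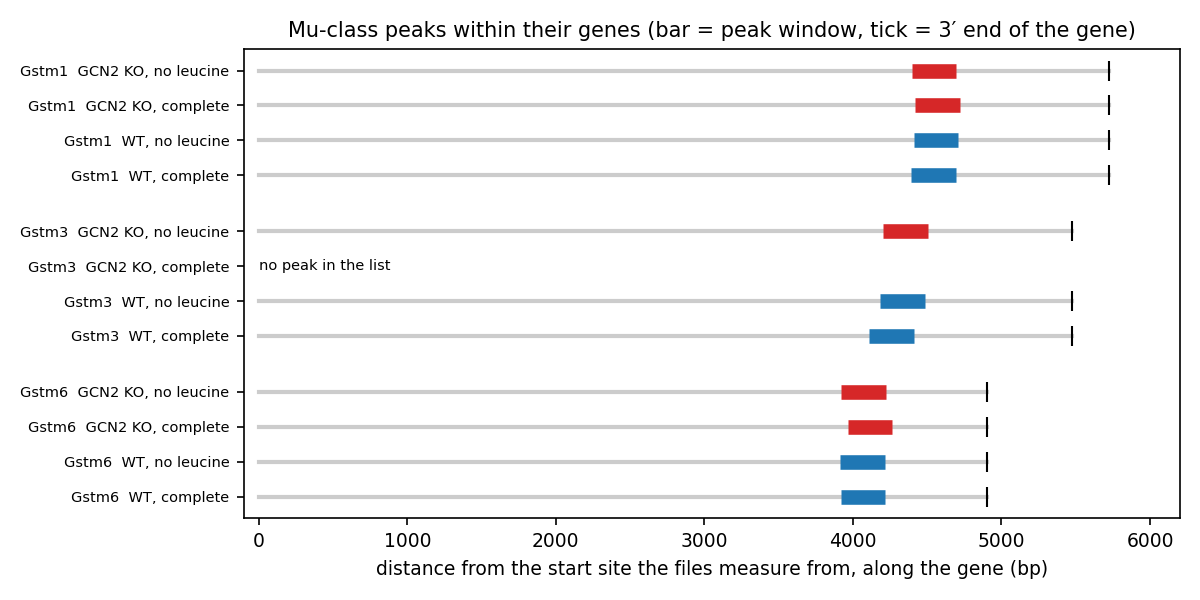
Peaks of Gstm1, Gstm3 and Gstm6 within their genes: the x axis is distance in bp from the start site the files measure from, coloured bars are the peak windows (red for GCN2 KO, blue for WT) and black ticks the 3′ ends. All 11 windows are centred between 4063 and 4568 bp, and Gstm3 has none in GCN2 KO in complete medium.

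Gstm2 lies between Gstm3 and Gstm1 and had no peak of its own. The nearest peak to its TSS was the Gstm3 peak, 21.6 kb away, in GCN2 KO MEFs without leucine. It was the Gstm1 peak, 27.0 kb away, in GCN2 KO MEFs in complete medium, and the Gstm3 peak again in WT MEFs, 21.6 kb away without leucine and 21.5 kb in complete medium. Gstm4, Gstm5 and Gstm7 of the same cluster had no assigned peak. In all, 34 further genes, noncoding genes among them, had a TSS within 100 kb of a member's TSS. Of these 34, 5 had a peak in some list, against 31.1% of protein-coding genes, a background that leaves noncoding genes out. Besides Gstm6 and Gstm3 they included Doc2g and Ddx43 in WT MEFs without leucine (ranks 2077 and 1403). The last was the noncoding gene C920006O11Rik, in GCN2 KO MEFs without leucine (rank 3090).

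The base composition of the member windows, which the choice of genes did not use, differed between the recurrent sites: the Gstm1 windows were below their lists' medians in GC and CpG content, and the Gstp2 windows were above them in CpG content. GC content was 50.5% to 51.5% at the Gstp2 site and 47.5% to 48.5% at Gstm1, with list medians of 51.2% to 52.2%. The 4 Gstm1 windows stood at GC percentiles 18.9, 11.3, 12.3 and 22.3 of their lists, in the order of the groups above. GC content was 50.5% at Gsta4 and 49.8% at Gsta3. CpG content at Gstp2 was 2.33% in both GCN2 KO lists and 2.67% in both WT lists, against a median of 1.33% in every list. At Gstm1 it was 0.667% to 1.0%. The windows of the neighbours Gstm6, at 1.0%, and Gstm3, at 0.667%, were below that median too. None of the member windows was annotated to a repeat element or a promoter.

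The wider GST family, 20 further genes of the mu, pi, theta, omega, zeta, kappa and microsomal classes and relatives, had a peak at 4 genes in GCN2 KO MEFs without leucine and at 3 in each other list. These are 20%, 15%, 15% and 15% of the family, against the background of 13.5%, 9.89%, 17.3% and 7.93% given above. Over the lists together, 4 of the 20 genes (20%) had a peak, against a higher share, 31.1%, of protein-coding genes. Besides Gstm6 and Gstm3 they were Mgst2 and Mgst1, which encode membrane-bound GSTs. Another 16 genes, among them all 4 theta genes and both omega genes, had none.

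Mgst2 counted in all 4 lists, but not by 1 site. A site in intron 2 of 4, 9.7 kb from the TSS, was in GCN2 KO MEFs without leucine (51670762 to 51671062 on chromosome 3, score 59), in GCN2 KO MEFs in complete medium (51670766 to 51671066, score 51) and in WT MEFs without leucine (51670737 to 51671037, score 67). In WT MEFs in complete medium the assigned peak lay 173977 bp from the TSS, within another transcript, and the nearest peak to the recurrent site was that one. Mgst1 had peaks in both GCN2 KO lists and in neither WT list. Of protein-coding genes, 7.39% had a peak in GCN2 KO and not in WT without leucine, and 7.16% in complete medium. The Mgst1 peaks were separate sites. Those without leucine lay 31356 and 69060 bp downstream of the TSS (ranks 4114 and 4029 of 4600). Their scores of 19 and 20 were near the list's lowest, 13. The peak in complete medium lay 110198 bp downstream (rank 108 of 3141, score 138).

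**Figure D4:**
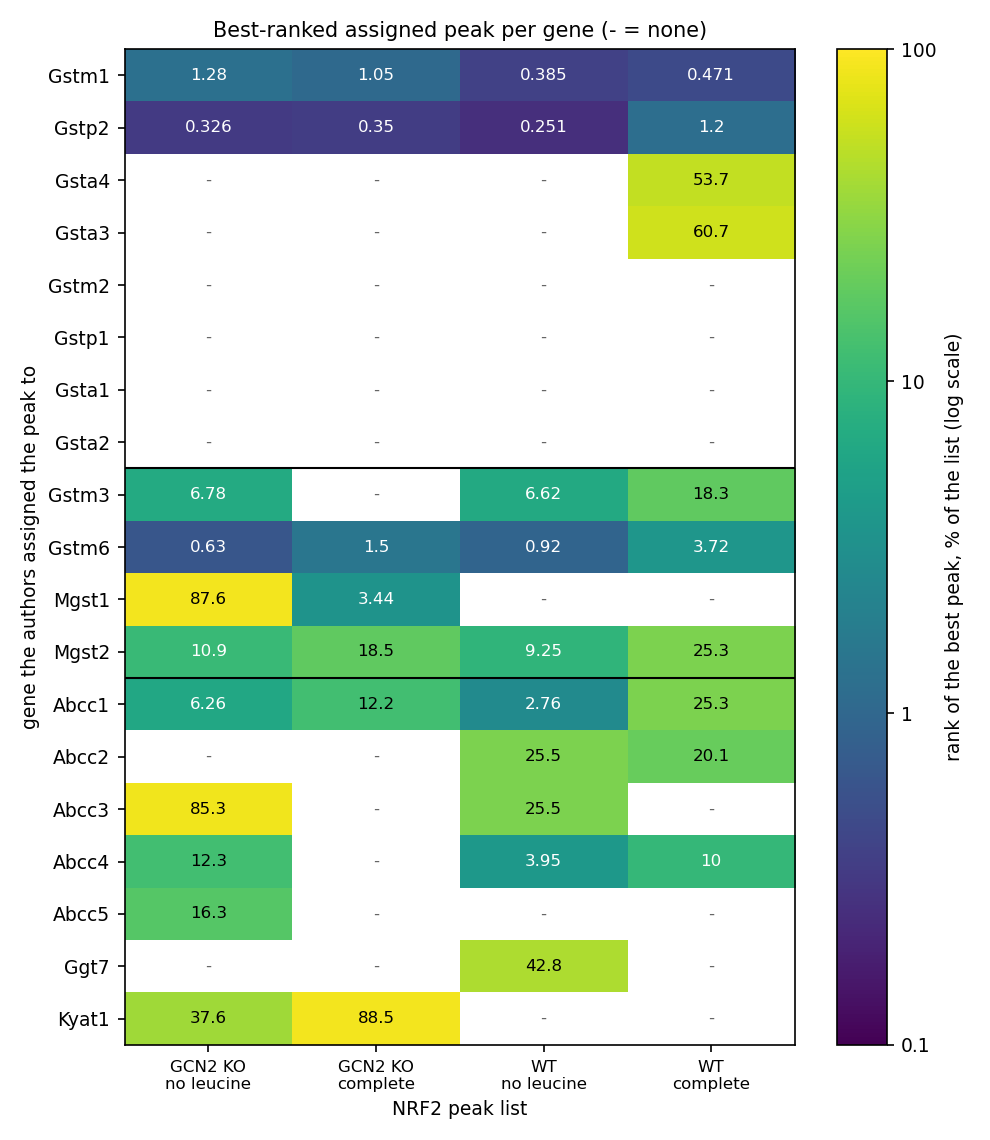
Rank of the best assigned peak of each gene as a percentage of its list (colour on a log scale, number in the cell, dash for no peak), with the members above the first line, the wider GST family with any peak between the lines and the mercapturate route below. Values are to be read down a column, since lists differ in length; Gstp2, Gstm1 and Gstm6 are within the top 4% of every list.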

How the data were processed

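Libraries were sequenced as single 50 bp reads, per the labels' protocols. The submitters' processing notes name BWA 0.7.12, MACS2 2.1.0, HOMER 4.7 and mm10, without settings. Each library was called against the complete-medium input of its genotype and annotated as 300 bp windows with HOMER, per the file headers. The authors deposited a whole-number score for each peak, at least 13 in every list, without saying which caller value it is. Distances are to the nearest TSS. Shares of CpG and of G and C bases were deposited by the authors as a fraction of the window and are printed as percentages.

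Members were matched by gene name and identifier to the GRCm38.p6 table, 8 of 8. Ranks give tied scores the best rank. Peaks overlapping by at least 1 bp were merged into sites, and a site was in a list when that list had a peak in it. Intervals are exact 95% Clopper-Pearson. With 1 library per group there is no test. Background counts use protein-coding genes of the table, where all its genes had been planned. The members, the 20 wider family genes (21 entries, 20 matched) and the 18 mercapturate genes were chosen with earlier results of these data known; 1 further gene planned for the last list is not reported here. Genes named are all members, every gene with a TSS within 100 kb of a member's TSS and a peak, and every listed gene with a peak. Overlap and motif code was tested on simulated data. Alternatives were a cut to the higher-scoring 50%, lists of equal length (2336 peaks), no satellite or simple repeats, TSS limits of 1, 10 and 50 kb, any peak within 10 kb of a TSS, a reciprocal overlap of 50%, centres within 100 bp and windows widened by 500 bp. Python 3.11.15, pandas 2.3.3 and numpy 2.4.6 were used. The 2 input samples were not analysed here. A genome was not used here, so window sequences are not shown.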

Additional observations from a re-analysis of the deposited data

How the results depend on the processing

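With a limit of 1 kb from the assigned TSS, members with a peak and peaks assigned to members were 0 in every list, since the closest peak lay 3198 bp from its TSS, and so were wider family genes with a peak. In the higher-scoring 50% of each list, WT MEFs in complete medium had 2 members and 2 member peaks instead of 4 and 4, because Gsta3 and Gsta4 fell out and were then in 0 lists. The other 66 values of member genes, member peaks and shared member sites stayed within 1.5 times the value reported, among them those at equal list lengths and without repeats. So did the other 60 values for named sites and the wider family, which were added after the data were seen. These counts are small, and a step from 4 to 3 stays within that limit. With a limit of 10 kb from the assigned TSS, WT MEFs in complete medium had 3 members and 3 member peaks, without Gsta3. The sites of Gstm1, Gstp2 and Gstm6 stayed in 4 lists and that of Gstm3 in 3 under every overlap, score, length and repeat alternative tried. Depth and replicate spread are unknown, and their part in a peak missing from a list was not tested. No paired analysis was possible because each group is 1 library and no test was made.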

Other observations

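The next step of GST metabolism, the mercapturate route, had a peak in some list at 7 of 18 genes (38.9%), against 31.1% of protein-coding genes. They were the exporters Abcc1 to Abcc5 and the enzyme genes Ggt7 and Kyat1. Of the 18, 5 had an assigned peak in GCN2 KO MEFs without leucine, 2 in GCN2 KO MEFs in complete medium, 5 in WT MEFs without leucine and 3 in WT MEFs in complete medium. These are 27.8%, 11.1%, 27.8% and 16.7%, against 13.5%, 9.89%, 17.3% and 7.93% of protein-coding genes. The exporter gene Abcc1 had a peak in all 4 lists, at several sites. One site upstream of it, at -8646 to -8699 bp, was in GCN2 KO MEFs in complete medium (rank 581), WT MEFs without leucine (rank 165) and WT MEFs in complete medium (rank 985). Another, at -10505 to -10566 bp, was in GCN2 KO MEFs without leucine (rank 288), GCN2 KO MEFs in complete medium (rank 383) and WT MEFs without leucine (rank 3657). Abcc4, a further exporter, had a site in GCN2 KO MEFs without leucine (rank 591), WT MEFs without leucine (rank 236) and WT MEFs in complete medium (rank 234). Kyat1, which encodes a cysteine conjugate beta-lyase and stands in the files as Ccbl1, had a site in intron 2 of 13 in both GCN2 KO lists. It had rank 1731 of 4600 without leucine (score 36) and 2781 of 3141 in complete medium (score 21, where the lowest was 13). Neither WT list had a Kyat1 peak. Of protein-coding genes, 7.39% had a peak in GCN2 KO and not in WT without leucine, and 7.16% in complete medium. The gamma-glutamyltransferase relative Ggt7 had 1 peak, in WT MEFs without leucine, and the dipeptidase and acylase genes of the list had none.

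A further site beyond the mu cluster recurred in all 4 lists. It was assigned to Eps8l3, was intergenic, and lay 135.6 kb from the Gstm2 TSS, outside the 100 kb limit for neighbours, so it was chosen after its values were seen. Its ranks were 151 in GCN2 KO MEFs without leucine, 46 in GCN2 KO MEFs in complete medium, 136 in WT MEFs without leucine and 120 in WT MEFs in complete medium. In GCN2 KO MEFs in complete medium it stood 1 rank above the Gstm6 peak.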
